A study of Mus musculus with 6 samples.

Results

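DNA replication genes were followed in cultured primary mouse pulmonary endothelial cells that had been exposed to hydrogen peroxide (H2O2). They are 42 named genes, matched by symbol to the deposited count tables, and all 42 were found among the 33006 genes listed there. The cells were of the C57BL/6 strain, grown in an endothelial growth medium, and at 80% confluence they received either water (control) or 300 uM H2O2 for 6 hours. There were 3 control and 3 H2O2 libraries of mRNA, each made from 100 ng of total RNA, and the labels give no genetic change in either group. Nothing in the labels says whether the numbered libraries are separate cultures or animals, so the p-values reflect library-to-library spread alone, and that spread may be technical.

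Before a cell divides, the origin recognition complex (ORC) with Cdc6 and Cdt1 loads rings of the MCM helicase onto DNA, and these rings are later switched on by Cdc45 and the GINS complex. Primase and polymerase alpha then start each strand, polymerases delta and epsilon extend it with the sliding clamp Pcna, and Fen1 and Lig1 join the fragments of the lagging strand. Most of these roles were worked out in yeast and human cells. Transcription of many of the genes rises as cells pass from G1 into S phase, under E2F factors, so their mRNA is commonly read as a mark of proliferating cells. In bulk RNA, fewer cells in S phase and less of a transcript per cell cannot be told apart.

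The libraries held 22455388 to 27618679 gene counts, and the least counted of the 42 genes, Fen1, had at least 79 counts in every library. Replicates were not duplicates of each other: the chi-square of their counts over genes, divided by its degrees of freedom, was 1.62 to 11.0 for pairs in a group, and both pairs with H2O2 replicate 3 gave the highest values (8.61 and 11.0). Of 12 endothelial markers, 11 passed the filter on low counts, with Pecam1 at 1019 ± 12.8 and Cdh5 at 1149 ± 43.7 normalised read counts (CPM, counts scaled to a common library total with TMM factors) in controls (SD, n = 3). The tight junction gene Cldn5, a marker of the same list, was close to 0 at 0.294 ± 0.182 CPM. Ptprc and Cd3e of leukocytes, Col1a2 of fibroblasts and Epcam and Sftpc of epithelium were at or near 0 in all libraries, whereas Dcn stood at 22.3 ± 0.802 CPM and Cd68 at 159 ± 3.52 CPM.

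After 6 hours in H2O2, 9 of the 42 genes fell and 2 rose, and all of these changes were small. The genes that fell were Mcm2, Mcm3, Mcm5, Mcm6 and Mcm7 of the helicase ring, the loading factor Cdt1, the helicase partner Mcm10, the catalytic subunit of polymerase delta Pold1 and the DNA ligase Lig1. Those that rose were the primase subunit Prim2 and the thymidylate synthase Tyms. The falls were 21.4% of the members, against 10.8% of all 12924 genes tested, and the rises were 4.76% against 9.70%. In either direction, 26.2% of the members passed, against 20.5% of all tested genes. All 42 members passed the filter on low counts. A gene passed the test with an adjusted p under 0.05 in edgeR's quasi-likelihood test, adjusted by the Benjamini-Hochberg method over all tested genes. With upper-quartile factors 7 fell (16.7%, against 9.21% of all tested genes) and 3 rose (7.14%, against 11.3%), the third rise being that of Pole. With library size only the members gave the same counts, against 9.80% lower and 10.4% higher over all tested genes. With a correction for transcript length and GC content, the share of members that rose was 14.3%, above that of all tested genes (9.57%), so the order of these shares for rises depends on this choice.

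The median log2 fold change of the 42 genes (H2O2 over control) was -0.025, against -0.0041 over all tested genes, with 24 members below 0 and 18 above. The median fold of the 11 members that passed was 1.11, against 1.13 over all genes that passed. Of these 11 members, 6 (of 42 tested) had a fold of 1.1 or more and 0 reached 1.2. Over all tested genes, 1962 (15.2%) passed with a fold of 1.1 or more, and 595 with 1.2 or more. All 3 H2O2 libraries lay below all 3 controls for 13 members (31.0%, against 18.2% of all tested genes) and above them for 5 (11.9%, against 16.5%). Summed over the 42 genes, the share of normalised counts was 0.599% to 0.614% in controls and 0.582% to 0.596% with H2O2. These ranges did not overlap. By role, the sums were also apart for the helicase ring (1591 to 1653 CPM in controls, 1465 to 1507 CPM with H2O2), licensing and fragment joining. The sums of the other roles overlapped between the groups.

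**Figure D1:**
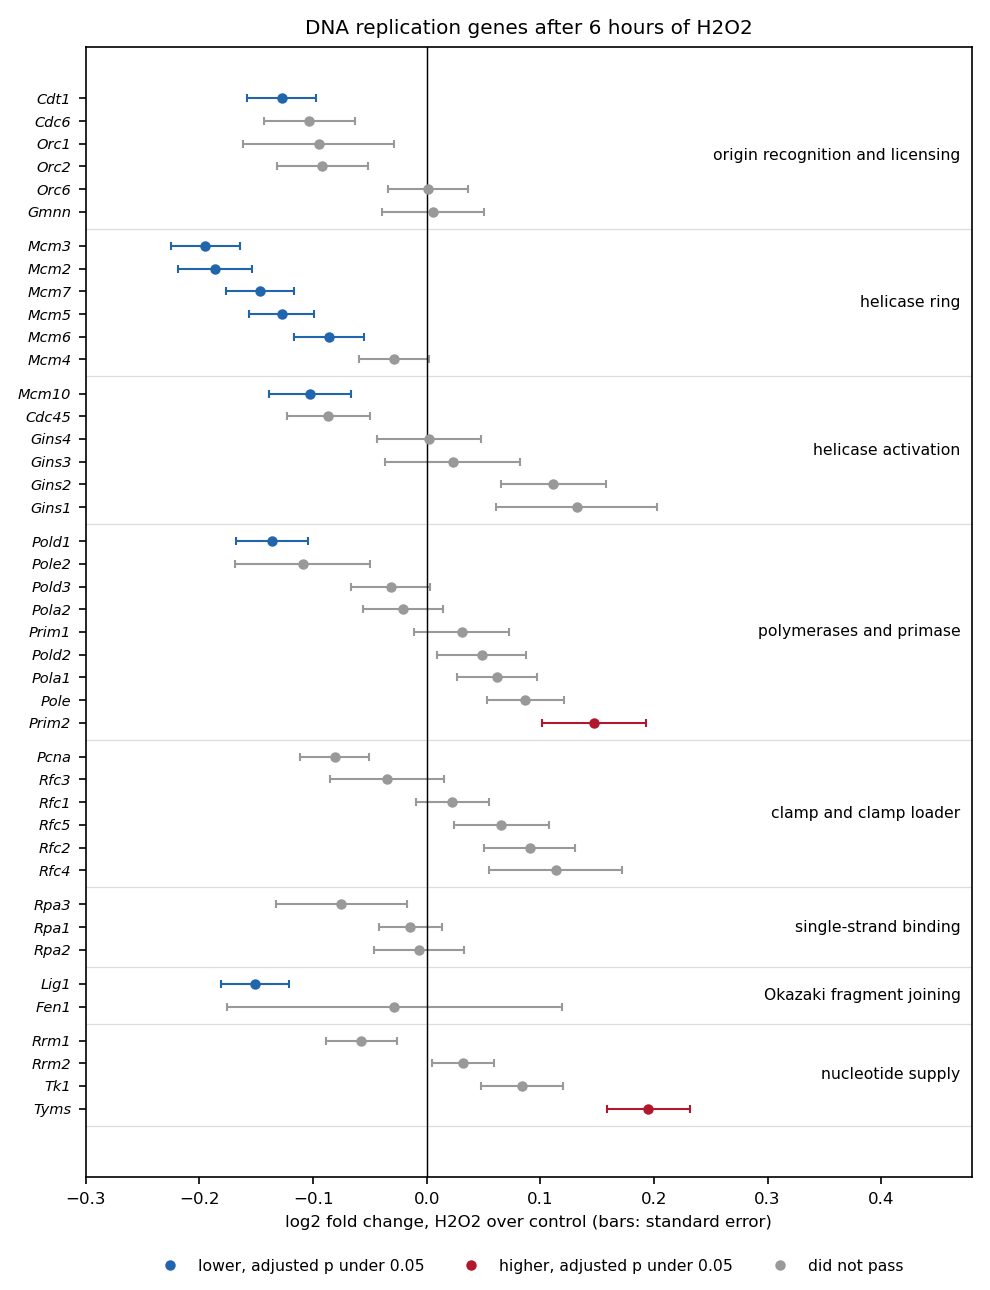
Log2 fold change (H2O2 over control, x axis) of each of the 42 DNA replication genes, grouped by role, with bars for the standard error of edgeR's fit; blue genes fell, red genes rose and grey genes did not pass. All 6 genes of the helicase ring lie below 0, from -0.03 (Mcm4) to -0.19 (Mcm3). Both genes of fragment joining and the 3 RPA genes also lie below 0, and the other roles have genes on both sides.

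The promoters of the members were searched for short motifs, E2F-type motifs first. Many replication genes are transcribed under E2F factors, so such motifs could be expected in this list whether or not a gene fell. RefSeq promoters (GRCm38.p6, 250 bases before to 50 after each start) were found for 34 of the 42 genes, and not for Mcm4, Gmnn, Gins1, Gins2, Gins4, Prim2, Pole and Rfc2. An E2F-type motif, spelled TTTCCCGC, TTTCGCGC, TTTGCCGC or TTTGGCGC and searched on both strands, was present in 14 of the 34 (41.2%), against 2.60% of all 27025 genes in the promoter table and 4.62% of the other tested genes. Among the 9 genes that fell it was present in 7, all except Mcm2 and Mcm10, and among 24 that did not pass it was present in 7 (29.2%). With a looser spelling of 7 letters (TTCCCGC or TTGGCGC), it was present in 7 of the 9 and in 12 of the 24, so this difference depends on the spelling. The promoter of Tyms held none. Of 434 other tested genes with it, 45 fell (10.4%) and 46 rose (10.6%), and of 8962 without it, 11.4% fell and 9.76% rose. These shares are descriptions with no test. A CCAAT box, on either strand, stood in 22 of the 34 (64.7%, against 41.1% of all genes in the table), and a CHR element (TTTGAA or TTCGAA, on either strand) in 7 (20.6%, against 21.7%).

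The stretches with the motif are shown only for the 7 genes that fell and carry it, so they were picked by the change. It also stood in 7 members that did not pass (Cdc6, Gins3, Orc1, Pola1, Pold3, Pole2 and Rfc3), which are not shown. Letters of the motif are in capitals on the strand of the gene. In Mcm5 and Mcm6 a pair of motifs on opposite strands overlap. In these genes and Mcm7 the printed stretch lies before the RefSeq start used, while in the other genes it lies after it. Mcm7 has 2 RefSeq starts, and its printed stretch, before 1 of them, lies inside the annotated span of the gene. Mcm7 has a further match after the start used, which is not printed.
Mcm5, chr8:75109319-75109388, plus strand: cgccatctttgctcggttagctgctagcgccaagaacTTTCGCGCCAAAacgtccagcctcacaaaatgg
Mcm6, chr1:128359736-128359835, minus strand: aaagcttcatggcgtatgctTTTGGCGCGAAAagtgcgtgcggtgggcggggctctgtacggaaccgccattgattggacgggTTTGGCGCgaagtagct
Mcm7, chr5:138172034-138172063, minus strand: cattaatttcgaaccGCGGGAAAcagggtg
Mcm3, chr1:20820265-20820294, minus strand: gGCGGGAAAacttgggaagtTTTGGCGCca
Cdt1, chr8:122568032-122568061, plus strand: cgcgggaactaccttTTTGGCGCcatggcg
Pold1, chr7:44548766-44548795, minus strand: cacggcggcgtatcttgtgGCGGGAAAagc
Lig1, from an alternative start, chr7:13278841-13278870, plus strand: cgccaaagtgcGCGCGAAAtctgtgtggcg

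Licensing of origins is the step at which ORC, Cdc6 and Cdt1 place helicase rings on DNA in G1, with geminin (Gmnn) holding Cdt1 back afterwards. Of these 6 genes, Cdt1 alone passed, and 20.5% of all tested genes passed in either direction. It stood at 345, 366 and 347 CPM in the controls and at 316, 323 and 331 CPM with H2O2. Every H2O2 library lay below every control, a fall of 0.13 on the log2 scale (SE 0.0304, adjusted p = 0.0032 in edgeR's test). Without control replicate 2, the highest library for Cdt1, the adjusted p was 0.051. Cdc6 went from 62.7 ± 0.171 to 58.4 ± 1.72 CPM (SD, n = 3 each) with no overlap between the groups, but its log2 difference of -0.10 did not pass (adjusted p = 0.068 in edgeR's test). Orc1, the ORC subunit with ATPase activity whose level follows the cell cycle, was at -0.10 and Orc2 at -0.09. Both had all H2O2 libraries below all controls and neither passed. Orc6 (0.0012) and Gmnn (0.0056) were level to within their SEs of 0.0351 and 0.0446. For Orc2, 29.8% of the exon bases are shared with Nif3l1, which lies on the other strand, and whether the counting used strand was not given in the sources used here.

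Mcm2 to Mcm7 encode the 6 subunits of the ring-shaped helicase that unwinds DNA at the fork. In these data 5 of the 6 fell, against 10.8% of all tested genes, and 1 of the 5, Mcm6, passed narrowly with overlapping groups. Mcm3 was at 371, 395 and 397 CPM in controls and at 338, 336 and 341 CPM with H2O2, the largest fall of the 42 genes, in which its level fell by 12.6% (log2 -0.19, SE 0.0302, adjusted p = 2.8e-05 in edgeR's test). Mcm2 was at 245, 258 and 255 CPM in controls and at 212, 228 and 227 CPM with H2O2, a log2 change of -0.19 (SE 0.0326, adjusted p = 1.3e-04 in edgeR's test). H2O2 replicate 1 was the lowest library for Mcm2, but the other two were also under every control.

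Mcm7 was at 198, 196 and 193 CPM in controls and at 179, 178 and 174 CPM with H2O2 (log2 -0.15, SE 0.0300, adjusted p = 7.3e-04 in edgeR's test). Mcm5 was at 251, 258 and 255 CPM in controls and at 233, 235 and 232 CPM with H2O2 (log2 -0.13, SE 0.0287, adjusted p = 0.0020 in edgeR's test). In both genes the gap between the groups was wider than the range within either group. The calls of Mcm2, Mcm3, Mcm5 and Mcm7 held in all 16 alternatives run, with Mcm3 between -0.22 and -0.18 and Mcm5 between -0.13 and -0.11.

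Mcm6 was at 332, 345 and 348 CPM in controls and at 316, 315 and 335 CPM with H2O2, and its groups overlapped through H2O2 replicate 3. Its log2 change of -0.09 (SE 0.0309) passed narrowly, with an adjusted p of 0.0496 in edgeR's test, and was called in 4 of 16 alternatives. Mcm4 was at 194, 200.04 and 196 CPM in controls and at 188, 192 and 198 CPM with H2O2. Its groups overlapped and its log2 difference of -0.03 (95% interval -0.09 to 0.03) did not pass in any of the 16 alternatives. Whether Mcm4 differed from its partners was not tested. The median log2 fold change of the 6 ring genes was -0.14.

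Per kilobase of exon, the ring genes did not stand at equal levels. In controls Mcm3 was highest at 103 ± 3.90 CPM per kilobase, then Mcm6 at 73.3 ± 1.86, Mcm5 at 63.8 ± 0.884, Mcm4 at 54.8 ± 0.856, Mcm7 at 44.2 ± 0.5002 and Mcm2 at 36.3 ± 0.996 (SD, n = 3). Neighbours in this order were further apart than their SDs, and the order was the same with H2O2. The length used counts every annotated exon base, so a gene with rarely used exons appears lower than it is.

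**Figure D2:**
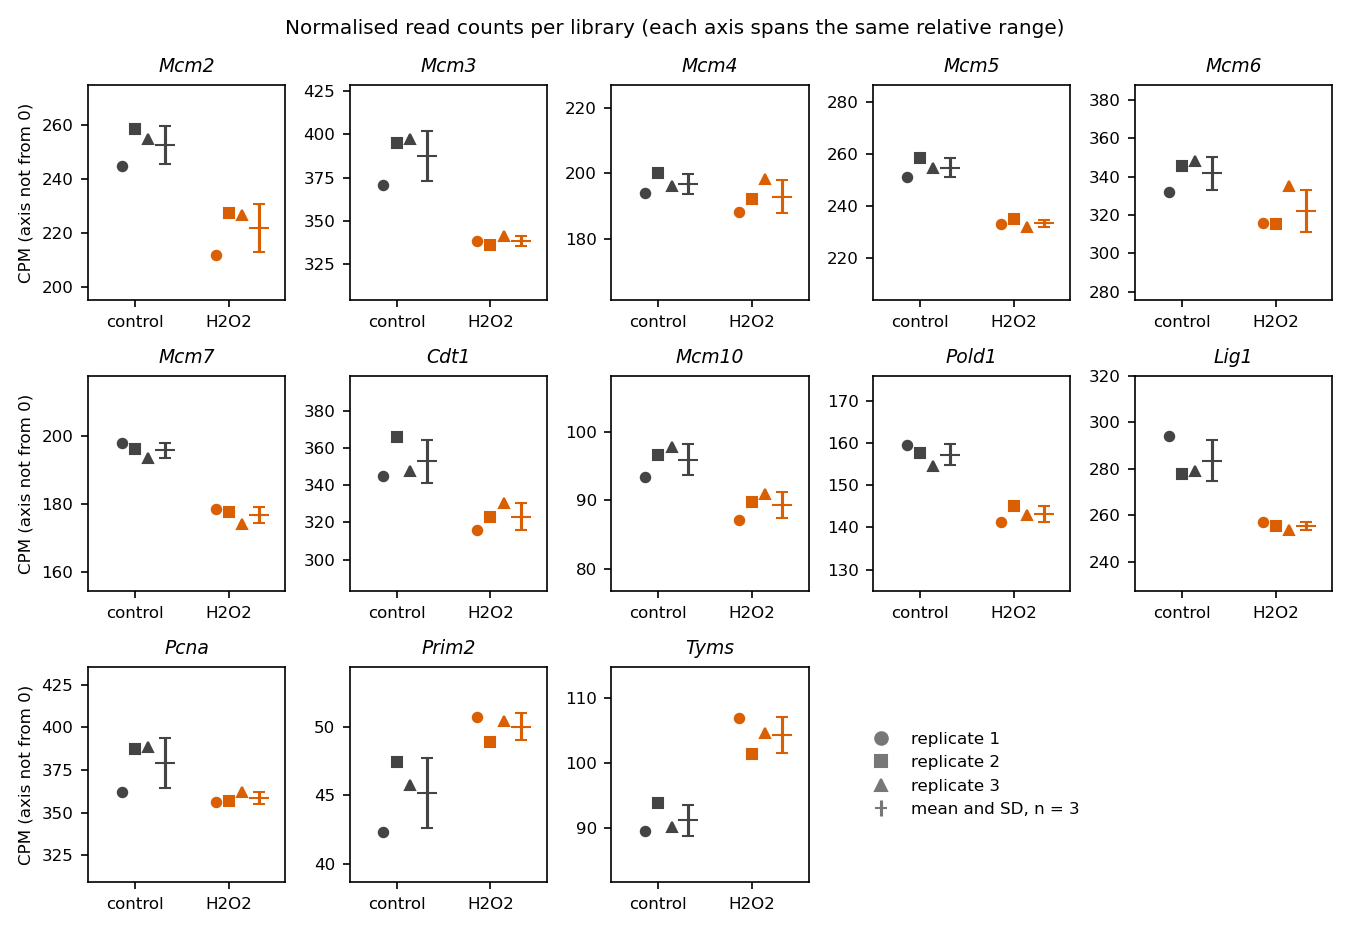
Normalised read counts (CPM, y axis, not starting at 0) of 13 DNA replication genes in each control and H2O2 library, with marker shapes for the replicate number and a bar for the mean and SD (n = 3). Each panel spans the same relative range, so heights can be compared: Mcm3 drops from between 371 and 397 to between 336 and 341, while Mcm4, Mcm6 and Pcna overlap between groups and Tyms and Prim2 lie higher with H2O2.

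Cdc45 and the 4 GINS subunits join the ring to form the active helicase, and Mcm10 takes part in its activation. Mcm10 was at 93.4, 96.7 and 97.8 CPM in controls and at 87.2, 89.8 and 90.9 CPM with H2O2. The groups did not overlap, and the fall of 0.10 (SE 0.0361, adjusted p = 0.044 in edgeR's test) was called in 5 of 16 alternatives. Cdc45 went from 87.2 ± 1.88 to 82.2 ± 1.95 CPM (SD, n = 3 each), also without overlap, but did not pass (log2 -0.09, adjusted p = 0.10 in edgeR's test).

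The GINS genes gave estimates above 0, with that of Gins4 far inside its SE. Gins1 (0.13, SE 0.0710), Gins2 (0.11, SE 0.0462), Gins3 (0.02, SE 0.0595) and Gins4 (0.0019, SE 0.0457) gave log2 differences that did not pass. All H2O2 libraries for Gins2 were above all controls, with 45.3 to 47.7 CPM against 40.8 to 44.7 CPM. Gins2 passed once transcript length and GC content were corrected for (0.13, adjusted p = 0.035 in edgeR's test), while Gins4 then stood at -0.07 and did not pass. The exons of Gins2 share 67.3% of their bases with Gse1 of the other strand, so the level of Gins2 is uncertain.

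Polymerase alpha and primase (Pola1, Pola2, Prim1, Prim2) lay the primers, polymerase delta (Pold1 to Pold3) mainly copies the lagging strand and polymerase epsilon (Pole, Pole2) mainly the leading strand. Of these 9 genes, 1 fell and 1 rose, against 10.8% and 9.70% of all tested genes. The catalytic subunit gene Pold1 was at 159, 158 and 155 CPM in controls and at 141, 145 and 143 CPM with H2O2. Its groups lay well apart, with a log2 change of -0.14 (SE 0.0315, adjusted p = 0.0025 in edgeR's test) that held in all 16 alternatives.

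The other delta subunit genes did not pass: Pold2 was at 0.05 (95% interval -0.03 to 0.13) and Pold3 at -0.03 (-0.10 to 0.04). Whether they differed from Pold1 was not tested. Prim2, the large primase subunit, was at 42.3, 47.4 and 45.8 CPM in controls and at 50.7, 48.9 and 50.5 CPM with H2O2. It rose by 0.15 (SE 0.0462, adjusted p = 0.023 in edgeR's test), and the call ended without control replicate 1 and without H2O2 replicate 1 (highest adjusted p = 0.13). The small subunit gene Prim1 was at 0.03 and the catalytic subunit gene Pola1 at 0.06, and neither passed.

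Pole, the catalytic subunit gene of polymerase epsilon, was between 135 and 141 CPM in controls and between 143 and 151 CPM with H2O2. These groups did not overlap, but the log2 difference of 0.09 (SE 0.0338) did not pass (adjusted p = 0.071 in edgeR's test). It was called higher in 7 of 16 alternatives, with an adjusted p of 0.0045 to 0.21 over all of them. Its partner Pole2 was at -0.11 (SE 0.0595), with all H2O2 libraries below all controls, and did not pass. The catalytic subunit genes of delta and epsilon therefore stood on opposite sides of 0.

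Pcna encodes the sliding clamp that holds polymerases on DNA, and Rfc1 to Rfc5 the loader that opens the clamp. None of these 6 genes passed edgeR's test, and 2 of them (Pcna and Rfc2) had an unadjusted p under 0.05. Pcna was at 362, 387 and 388 CPM in controls and at 356, 357 and 362 CPM with H2O2. The ranges of the groups met at the lowest control and the highest H2O2 library, and the log2 difference was -0.08 (95% interval -0.14 to -0.02, adjusted p = 0.060 in edgeR's test). It was called lower in 5 of 16 alternatives, and its 2 named pseudogenes can take or remove reads in the counting.

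The loader genes Rfc1 (0.02), Rfc2 (0.09), Rfc4 (0.11) and Rfc5 (0.07) were above 0 and Rfc3 (-0.04) was below. All H2O2 libraries for Rfc2 were above all controls, at 81.7 to 86.4 CPM against 74.1 to 80.9 CPM. Rfc2 was called higher after the same correction (0.13, adjusted p = 0.020 in edgeR's test).

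The heterotrimer RPA coats single-stranded DNA at forks and at sites of damage, and none of its 3 genes passed. The large subunit gene Rpa1 went from 343 ± 4.04 to 339.5 ± 1.07 CPM (SD, n = 3 each). Its log2 difference of -0.01 had a 95% interval of -0.07 to 0.04. Rpa2 was as level (-0.0065, SE 0.0397), while Rpa3 stood lower at -0.08 (SE 0.0575).

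Lig1, the ligase that seals fragments of the lagging strand, was at 294, 278 and 279 CPM in controls and at 257, 255 and 253 CPM with H2O2. The lowest control lay above every H2O2 library, and the log2 change of -0.15 (SE 0.0300, adjusted p = 5.4e-04 in edgeR's test) held in all 16 alternatives. Fen1, the flap nuclease that prepares the same fragments, lay at only 3.15 to 4.39 CPM in controls and 3.21 to 3.81 CPM with H2O2. Its exons share 84.2% of their bases with Tmem258 and Gm10143 of the other strand, and its interval was the widest of the 42 genes at -0.33 to 0.27, so little can be said of it.

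Among genes that supply nucleotides, Tyms, the enzyme that makes thymidylate, gave the largest rise of the 42 genes. It was at 89.5, 93.9 and 90.1 CPM in controls and at 107, 101 and 105 CPM with H2O2. Every H2O2 library was above every control, a rise of 14.5% (log2 0.20, SE 0.0363, adjusted p = 2.6e-04 in edgeR's test) that held in all 16 alternatives. A named pseudogene, Tyms-ps, can take or remove reads in the counting.

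Thymidine kinase (Tk1), the salvage route to the same nucleotide, was at 0.08 (SE 0.0359) and did not pass (adjusted p = 0.11 in edgeR's test). The large subunit gene of ribonucleotide reductase, Rrm1, was at -0.06 (SE 0.0314), and the small subunit gene Rrm2 at 0.03 (SE 0.0272). Neither passed. Rrm2 was the most abundant of the 42 genes per kilobase, going from 196 ± 1.54 to 200.1 ± 3.88 CPM per kilobase (SD, n = 3 each).

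**Figure D3:**
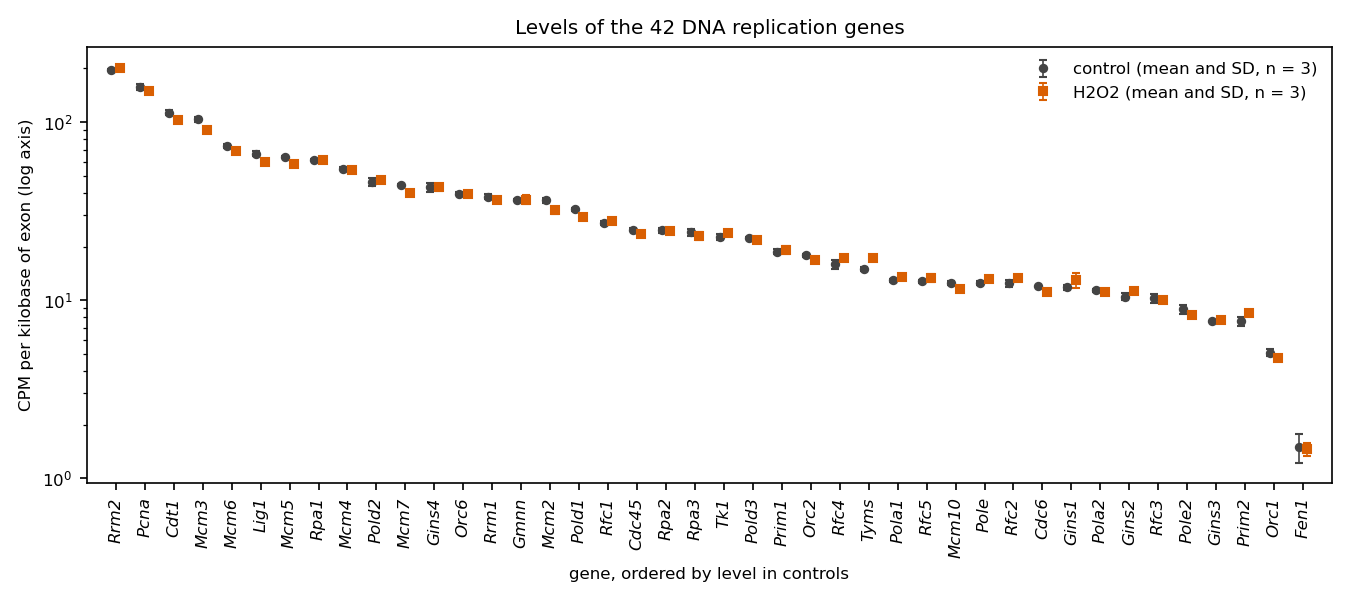
Level of each of the 42 DNA replication genes per kilobase of exon (CPM per kilobase, log axis), ordered by the control mean, with points for the mean of 3 control and 3 H2O2 libraries and bars for the SD. Levels run from 196 (Rrm2) to 1.497 (Fen1) in controls, and the difference between treatments is small beside the difference between genes.

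Of the 31 members that did not pass, 8 had an unadjusted p under 0.05. These were Cdc6, Cdc45, Orc2 and Pcna on the lower side and Gins2, Pole, Rfc2 and Tk1 on the higher side. For 29 of the 31, the 95% interval of the difference lay within 1.2-fold in either direction, so a larger change would have been outside it, and the exceptions were Gins1 and Fen1. H2O2 replicate 3 lay nearest to the controls, with a median log2 deviation over the members of 0.00024 from the control mean, against -0.03 and -0.04 in H2O2 replicates 1 and 2. The control libraries stood at -0.02, 0.01 and 0.0043. Without H2O2 replicate 3, 13 members fell (31.0%) and 2 rose (4.76%), against 1313 and 1177 (8.99%) of the 13088 genes tested in that fit.

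Most of the genes that fell had GC-rich transcripts, the exceptions being Mcm6 (47.3% GC) and Mcm10 (48.7% GC). Of 12 members in the 2 highest of 5 equal-sized GC classes of all tested genes (above 51.5%), 7 fell and 0 rose. Of the 30 other members 2 fell and 2 rose. Over all tested genes 10.8% fell and 9.70% rose, and the shares of all tested genes called in those 2 classes were not counted. All tested genes in those classes had medians of -0.02 and 0.0086 on the log2 scale, against -0.13 and -0.13 for the members in them. With a correction for transcript length and GC content fitted in each library, 8 members fell (19.05%) and 6 rose (14.3%), against 10.3% and 9.57% of all tested genes in that fit. Mcm2, Mcm3, Mcm5, Mcm7, Cdt1, Pold1 and Lig1 were again lower, Pcna was added, and Mcm6 and Mcm10 did not pass. Tyms and Prim2 were again higher, and Gins2, Pole, Rfc2 and Tk1 were added.

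**Figure D4:**
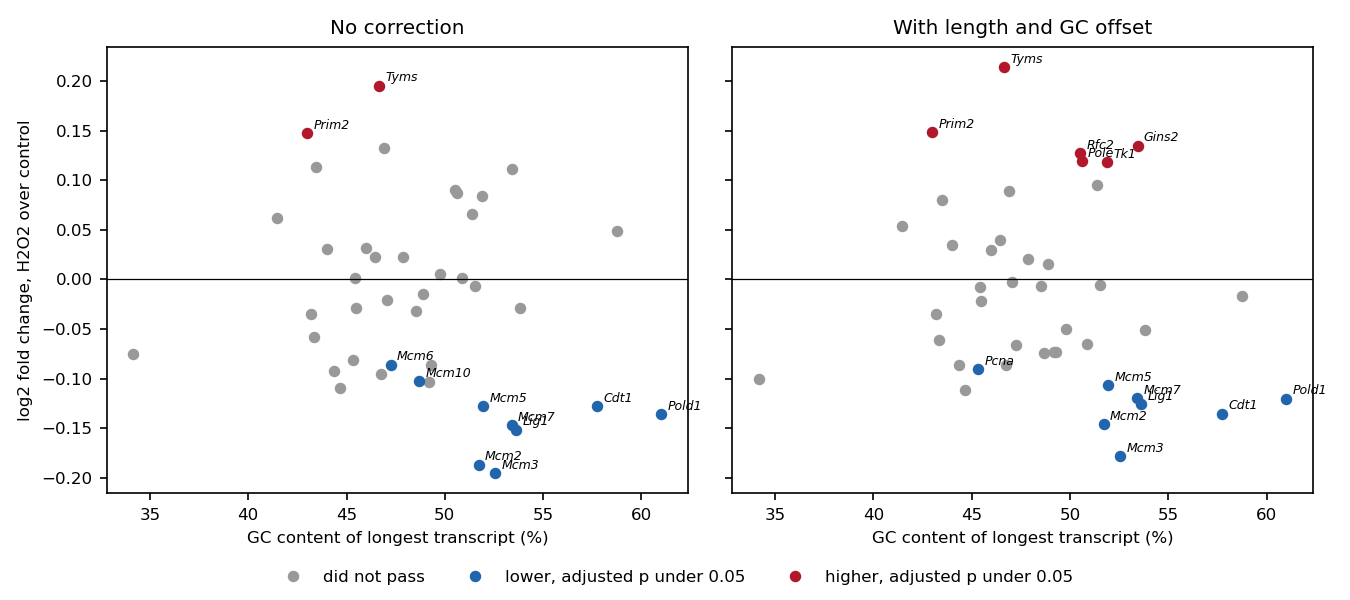
Log2 fold change (H2O2 over control, y axis) of the 42 DNA replication genes against the GC content of the longest transcript (percent, x axis), uncorrected (left) and corrected for transcript length and GC (right). Blue genes fell and red genes rose; 7 of the genes that fell lie at over 51.5% GC in the left panel, and the right panel has 8 lower and 6 higher genes.

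Other genes of DNA replication were read from a list of 43, all tested, of which 6 fell and 4 rose, with a median log2 fold change of 0.0021. These shares stand against 10.8% lower and 9.70% higher over all tested genes. Dtymk, the thymidylate kinase that acts after Tyms and Tk1, rose from 47.9 ± 1.67 to 59.5 ± 2.95 CPM (log2 0.31, SE 0.0450, adjusted p = 1.1e-05 in edgeR's test). Topbp1, a scaffold of helicase activation and of the ATR checkpoint, rose by 0.14 (SE 0.0319). Recql4, a helicase of the RecQ family that takes part in initiation, fell from 44.2 ± 0.171 to 37.3 ± 0.935 CPM (log2 -0.24, SE 0.0451, adjusted p = 2.4e-04 in edgeR's test). Mtbp, a partner of the initiation factor treslin, fell by 0.16 (SE 0.0384), and Ssrp1, a subunit of the histone chaperone FACT and the most abundant gene of the list by CPM, fell from 491 ± 2.77 to 457 ± 4.74 CPM (SD, n = 3 each). The calls of these 5 genes held in all 16 alternatives.

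Of 33 regulators of the step from G1 into S phase, 5 rose and 3 fell, against 9.70% and 10.8% of all tested genes. The median of the 33 was 0.03. Myc, a transcription factor that drives growth and proliferation, fell most, from 77.7 ± 0.397 to 62.9 ± 2.29 CPM (log2 -0.30, SE 0.0389, adjusted p = 1.8e-06 in edgeR's test), and held in all 16 alternatives. Cyclin D2 (Ccnd2) fell by 0.11 (SE 0.0316), while cyclin A2 (Ccna2, 0.10, SE 0.0299) and the E2F partner Tfdp1 (0.11, SE 0.0311) rose. Cdk4, the most abundant of them by CPM, rose from 345 ± 8.16 to 366 ± 7.25 CPM (log2 0.09, SE 0.0292). The count of rises changed with the fit, from 0 without control replicate 3 to 8 with upper-quartile factors. A fit with fewer libraries has less power for every gene, so a lost call need not depend on the library left out. With any of control replicate 2, control replicate 3 or H2O2 replicate 1 left out, 1 fell in place of 3. The 8 E2F genes, looked at after their values were seen, stood between -0.09 (E2f4) and 0.11 (E2f1), and none passed edgeR's test. Their unadjusted p-values in edgeR were 0.018 for E2f1, 0.022 for E2f8 and 0.022 for E2f4, and E2f1, E2f4 and E2f8 were called in 10 of 128 values over the alternatives.

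Genes of the replication checkpoint, which slows replication when forks stall, numbered 15. Of these, 1 fell and 0 rose in edgeR's test, against 10.8% and 9.70% of all tested genes. The median of the 15 was -0.04. The gene that fell was Rad9a, a subunit of the checkpoint clamp, with an adjusted p of 0.049 in edgeR's test, and it did not pass in 12 of 16 alternatives.

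Some endothelial markers moved with the treatment too. Of 11 tested, 5 (Pecam1, Tek, Emcn, Plvap and Esam) rose and 0 fell, against 9.70% and 10.8% of all tested genes. The other 6 did not pass, and 2 of them, Tie1 (-0.013) and Erg (-0.03), stood below 0. The median of the 11 was 0.08. The summed level of the endothelial markers was 5487 to 5582 CPM in controls and 5843 to 5949 CPM with H2O2. The summed level of 12 mesenchymal markers was 32.0 to 34.6 CPM in controls and 29.8 to 34.1 CPM with H2O2, and that of 9 leukocyte markers, nearly all of it Cd68, 158 to 165 and 164 to 171 CPM. None of the 6 mesenchymal and 3 leukocyte markers tested passed, and all 10 epithelial and mesothelial markers were under 1 CPM. The part of these differences in the replication genes was not tested.

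**Figure D5:**
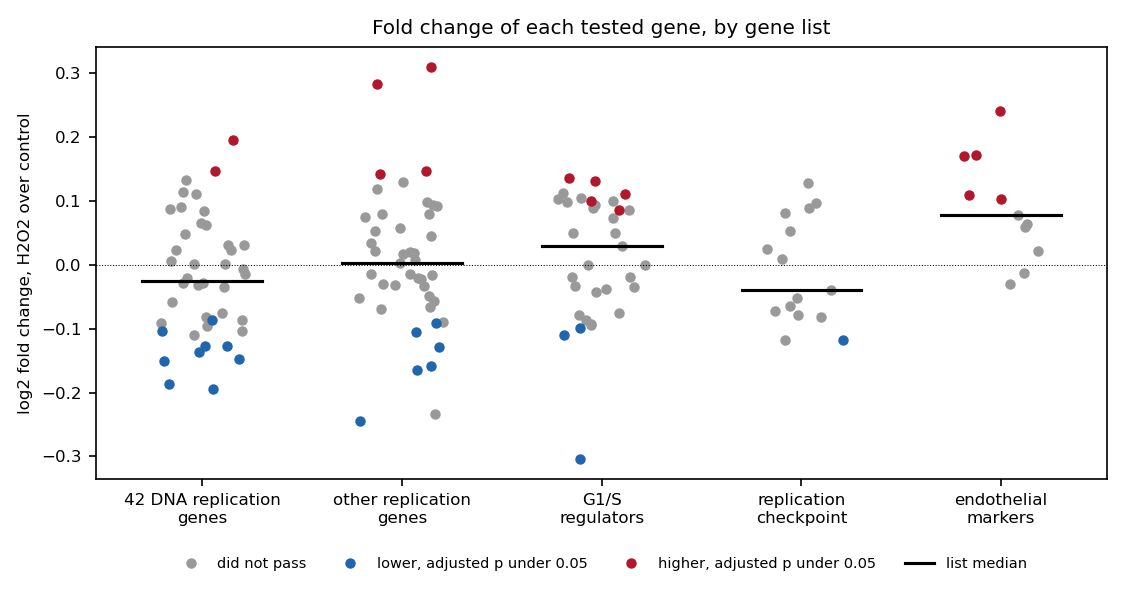
Log2 fold change (H2O2 over control, y axis) of each tested gene in the list of 42 DNA replication genes and in 4 other lists, with a line at each list's median; blue genes fell, red genes rose and grey genes did not pass. Medians are -0.025 for the 42 genes, 0.0021 for other replication genes, 0.03 for G1/S regulators, -0.04 for the replication checkpoint and 0.08 for endothelial markers, and single genes of every list lie on both sides of 0.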

How the data were processed

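The authors deposited 1 table of whole-number read counts for each library, with genes named by symbol. Tools named in the submitters' processing notes are STAR 2.5.3, HTSeq, cutadapt, bcl2fastq 2.17.1.14 and DESeq2, with build mm10. Which annotation was counted, and whether by strand, was not given in the sources used here. The 5 summary classes of HTSeq (4.76% to 5.46% of reads with no feature, 3.17% to 3.30% ambiguous, 11.0% to 11.7% not unique) were left out.

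Counts were tested with edgeR 4.0.16 (R 4.3.3) after filterByExpr, with TMM factors, the quasi-likelihood test and treatment as the only term, and p-values were adjusted over all 12924 tested genes. SEs and 95% intervals come from that fit. Alternatives were other scaling factors, DESeq2 1.42.0, limma-voom (limma 3.58.1), no filter and a stricter filter (at least 100 counts), the replicate number as a block, a correction of each library for transcript length and GC content (an offset from loess, span 0.3, fitted outside the gene lists), and fits without each library. Lengths, positions and overlaps came from GENCODE M21, of the same assembly as mm10, and covered 99.1% of tested genes. The edgeR, block, offset, DESeq2 and limma-voom fits were tested on simulated data.

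The members and the other gene lists were chosen with earlier results of these data known. The 42 members are all accounted for, and values of every library are given for Mcm2 to Mcm7, Pcna and the members that passed without overlap between the groups. From each list of other genes, up to 4 passing genes with the smallest p and the most abundant gene are named, except for 1 gene that is not reported here. Promoters came from RefSeq.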

Additional observations from a re-analysis of the deposited data

How the results depend on the processing

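Over 16 alternatives the members called lower numbered 6 to 13 (9 as reported) and those called higher 1 to 6 (2 as reported), and the median log2 fold change of the members stayed below 0, at -0.0331 to -0.0061. The offset for length and GC content gave 6 higher members (14.3%, against 9.57% of all tested genes). The offset with the replicate block also gave 6. In fits without each library in turn, the higher members numbered 1 (without control replicate 1) to 3 and the lower members 6 to 13, and all tested genes called lower numbered 926 (without H2O2 replicate 1) to 1313. Samples with the same replicate number did not deviate together over all tested genes (correlations of -0.0261 to 0.0299). Counting noise can hide a shared deviation, so these values do not settle whether the numbers pair the libraries. With the replicate block 10 members were lower and 3 higher. The shares of all tested genes with the replicate block are not given here. The median log2 fold change of all tested genes (-0.0041 as reported, -0.0041 to 0.0021 without each library in turn) changed sign with upper-quartile factors (0.0082), library size only (0.0024), no filter (0.0036) and without control replicate 1 (0.0021). The E2F-type motif of 7 letters stood in 55.9% of the members' promoters, against 7.79% of all genes in the table and 14.1% of the other tested genes. The causes of these shifts were not tested. Fen1, at 79 to 105 counts a library, is the member for which depth gives the least precision.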
